A study of Mus musculus with 63 samples.

Results

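The 9 genes described here mark tuft cells and were followed through 57 RNA-seq libraries of a study of the Mediator kinases CDK8 and CDK19 in mouse intestinal epithelium. The genes were Pou2f3, Gfi1b, Trpm5, Dclk1, Avil, Sh2d7, Alox5ap, Ltc4s and Il25. They were taken by symbol from the deposited count tables, and all 9 of 9 were found among the 54752 genes counted. The libraries came from small intestinal epithelial cells (IECs) of mice and from intestinal organoids, which are epithelial cultures grown from crypts. All strains were C57BL/6, and the libraries formed 19 groups of 3.

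The IECs came from mice with the VillinCreERT2 transgene alone or with VillinCreERT2;Cdk8 fl/fl;Cdk19 ko/ko, called CDK8iIEC-KO/Cdk19-/- here. Both genotypes received 5 daily injections of tamoxifen (80 mg/kg) and were sampled 14 days after the last. At day 7, organoids of 5 genotypes were compared: VillinCreERT2, C57BL/6 without a transgene, CDK8iIEC-KO (VillinCreERT2 with floxed Cdk8), Cdk8fl/fl/Cdk19-/- without Cre, and CDK8iIEC-KO/Cdk19-/-. All 5 had been given 100 nM 4-hydroxytamoxifen (4-OHT) for 24 h, so the controls carried the drug too. In a time course, a second line of the VillinCreERT2/Cdk8fl/fl/Cdk19-/- genotype received 4-OHT or 0.001% ethanol (EtOH) for 24 h and was sampled at days 3, 5, 7 and 10. Both arms of that line lacked Cdk19, so the 4-OHT arm differed from its control by the deletion of Cdk8 and the drug. The same line was grown in Wnt3-conditioned medium (Wnt3-CM) and sampled at day 10. Cdk19D173A/- organoids, which carry VillinCreERT2, floxed Cdk8, 1 kinase-dead and 1 null Cdk19 allele, received EtOH or 4-OHT and were sampled at day 7. The Villin promoter limits CreERT2 to epithelial cells. Each organoid group came from 1 line, and the labels do not say whether its 3 libraries were separate cultures. The p-values therefore measure the spread between these libraries.

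Tuft cells are rare chemosensory cells of the intestinal epithelium that sense parasites and metabolites of microbes. Their identity depends on the transcription factor POU2F3. Ligands at their surface raise intracellular calcium, which opens the cation channel TRPM5, and the cells answer with the cytokine IL-25 and with cysteinyl leukotrienes that act on immune cells below the epithelium.

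The factors Pou2f3 (chr9:43123939-43210369, minus strand, GRCm38) and Gfi1b (chr2:28609450-28621982, minus) encode a POU-domain activator and a zinc-finger repressor. Trpm5 (chr7:143069153-143094642, minus) encodes the taste-type channel. Dclk1 (chr3:55242364-55539068, plus) encodes a microtubule-associated kinase, Avil (chr10:127000709-127020994, plus) encodes advillin, an actin-binding protein of the apical tuft, and Sh2d7 (chr9:54538984-54545020, plus) encodes an SH2-domain protein. Alox5ap (chr5:149264767-149288153, plus) and Ltc4s (chr11:50236461-50238616, minus) encode the 5-lipoxygenase activating protein and leukotriene C4 synthase. Il25 (chr14:54932695-54935837, plus) encodes the cytokine. Pou2f3, Gfi1b and Il25 shared no exon bases with a gene on the opposite strand in the GENCODE vM21 annotation. The other 6 shared between 27 and 268 exon bases with such a gene, among them Trpm5 with Tssc4 (220 bases) and Avil with Tsfm (165 bases). Whether the counting used strand is not given in the sources used here, so reads from those bases cannot be assigned to 1 of the genes.

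Promoter sequence was found for 6 of the 9 genes (Gfi1b, Trpm5, Dclk1, Avil, Sh2d7 and Ltc4s). The 250 bases before the RefSeq start of each were searched on both strands for ATGCAAA, a stretch of 7 letters within the octamer that POU-domain factors are known to bind. For Sh2d7 that start lies 4861 bases before the GENCODE start, and the window of Ltc4s holds 84 exon bases of the gene as GENCODE places it. Of 32851 mouse promoters of that length, 4.12% held it. Avil held it 2 times, once on each strand, at chr10:127000594-127000600 and chr10:127000694-127000700, with the last base 109 and 9 bases before the start. The windows of Gfi1b, Trpm5, Dclk1, Sh2d7 and Ltc4s did not hold these letters. The E-box CAGCTG, held by 13% of the promoters, was in none of the windows of the 6 genes. A match is a description of sequence and not a binding site. The windows of Avil, of Trpm5 and of the 2 annotated starts of Dclk1, the genes on which most of the following comparisons turn, are printed 5′ to 3′ on the strand of the gene, from RefSeq GRCm38.p6, with ATGCAAA and its reverse complement in capitals.
Avil, chr10:127000459-127000708, plus strand: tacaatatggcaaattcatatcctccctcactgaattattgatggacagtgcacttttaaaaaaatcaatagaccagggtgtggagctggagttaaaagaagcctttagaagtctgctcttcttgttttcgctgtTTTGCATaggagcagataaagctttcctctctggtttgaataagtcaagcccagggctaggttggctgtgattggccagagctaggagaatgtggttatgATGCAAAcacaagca
Trpm5, chr7:143094643-143094892, minus strand: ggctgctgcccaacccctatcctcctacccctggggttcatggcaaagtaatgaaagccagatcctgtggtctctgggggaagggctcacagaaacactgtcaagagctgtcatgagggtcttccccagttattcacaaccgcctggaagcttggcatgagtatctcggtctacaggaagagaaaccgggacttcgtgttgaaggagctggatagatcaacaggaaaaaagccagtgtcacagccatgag
Dclk1, first start, chr3:55242114-55242363, plus strand: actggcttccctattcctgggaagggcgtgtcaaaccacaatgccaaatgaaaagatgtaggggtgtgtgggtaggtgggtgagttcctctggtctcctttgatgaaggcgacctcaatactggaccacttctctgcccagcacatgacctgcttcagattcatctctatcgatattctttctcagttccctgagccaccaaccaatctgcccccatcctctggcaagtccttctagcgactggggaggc
Dclk1, second start, chr3:55461478-55461727, plus strand: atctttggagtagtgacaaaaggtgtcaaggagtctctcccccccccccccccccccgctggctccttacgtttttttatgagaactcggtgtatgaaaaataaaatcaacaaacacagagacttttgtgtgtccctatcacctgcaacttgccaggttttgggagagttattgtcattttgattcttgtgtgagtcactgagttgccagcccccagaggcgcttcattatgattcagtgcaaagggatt

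Total counts per library lay between 15485959 and 32909565. At that depth 3 counts, the floor used here for a gene at 0, corresponded to between 0.100 and 0.178 CPM (counts relative to library size scaled by TMM). The epithelial genes Epcam and Vil1 were present in every library, at 808 to 1796 and 528 to 3586 CPM. Cdk8 and Cdk19 were counted over the whole gene, at 34.2 to 83.1 and 15.1 to 59.99 CPM, and no deletion brought either near 0. Cdk8 was at 71.9 to 80.8 CPM in VillinCreERT2 organoids, 77.96 to 83.1 CPM in CDK8iIEC-KO and 65.1 to 67.2 CPM in CDK8iIEC-KO/Cdk19-/- organoids. Cdk19 was at 28.7 to 34.5 CPM in C57BL/6 and 24.7 to 26.02 CPM in Cdk8fl/fl/Cdk19-/- organoids, and it reached its highest level in the Cdk19-/- line of the time course. Totals over the whole gene do not check alleles that remove or change only part of it. A list of 12 leukocyte markers summed to at most 18.7 CPM in each organoid library, with 3 to 7 of the 12 at 0. The organoid experiments were normalized separately from one another and from the IECs, so levels set side by side across them are descriptions. In bulk RNA, fewer tuft cells and less tuft RNA per cell cannot be told apart.

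Tuft transcripts were rare in all control organoids. Per kilobase of exon, the 9 genes in VillinCreERT2 organoids ran from 1.14 CPM per kb for Sh2d7, 0.955 for Avil and 0.938 for Pou2f3 to 0.0794 for Gfi1b and 0.0611 for Il25. In VillinCreERT2 IECs the order was different, with Ltc4s first at 8.89 CPM per kb, then Sh2d7 at 8.47, Avil at 7.71 and Alox5ap at 7.17, while Pou2f3 stood at 1.92 and Il25 was again last at 0.306. The summed level of the 9 genes was 127 to 171 CPM in VillinCreERT2 IECs and 20.6 to 23.2 CPM in VillinCreERT2 organoids. Gfi1b and Il25 were at the edge of detection in organoids. Over all organoid libraries, Gfi1b did not pass 23 counts and Il25 did not pass 5 counts.

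To ask what loss of both kinases did at day 7, CDK8iIEC-KO/Cdk19-/- organoids were compared with VillinCreERT2 organoids. Of the 7 tuft genes that passed the filter on low counts, 6 fell, by 2.42-fold to 9.10-fold, and Ltc4s did not pass the test. A gene was called changed at an adjusted p under 0.05 (edgeR quasi-likelihood test, Benjamini-Hochberg over all genes tested) and a fold over 1.5. For comparison, 7.95% of all genes were called lower and 11.5% higher. The median log2 fold change of the 7 was -2.26, beside -0.00 over all genes. Here and in every later comparison, a scarce gene could pass the filter through the groups where it was high, and genes low in every group could not pass. Alox5ap here, Sh2d7, Avil and Dclk1 in the time-course line and Gfi1b in the Cdk19D173A/- organoids were such scarce genes, so the counts of called genes describe the genes that passed and support nothing further.

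The master regulator Pou2f3 had 59, 54 and 66 counts in VillinCreERT2 organoids and 9, 10 and 5 in CDK8iIEC-KO/Cdk19-/- organoids. Its level went from 2.90 ± 0.364 CPM (SD, n = 3) to 0.446 ± 0.150 CPM, a fall of 6.42-fold (log2 fold change -2.68, SE 0.273, adjusted p = 8.14e-09). The 3 double-knockout libraries all lay far under the 3 controls. The channel gene Trpm5 had 66, 82 and 96 counts against 15, 15 and 14, a fall of 4.80-fold (log2 fold change -2.26, SE 0.21, adjusted p = 1.55e-09). Dclk1, the gene most often used to stain tuft cells, had 159, 153 and 141 counts against 11, 20 and 12. Its level went from 7.31 ± 0.250 to 0.800 ± 0.286 CPM (9.10-fold lower, log2 fold change -3.19, SE 0.202, adjusted p = 1.39e-12), the greatest fall among the genes tested of the 9. Again no library of one group reached the other.

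Sh2d7 fell from 50, 79 and 66 counts to 18, 6 and 7 counts (log2 fold change -2.44, SE 0.305, adjusted p = 2.49e-07), with a log2 fold change of -3.09 without double-knockout replicate 1. Avil, the actin-binding gene of the tuft, had 66, 72 and 63 counts against 19, 27 and 26. It kept the largest remainder of the genes that fell, at 1.34 ± 0.254 against 3.25 ± 0.181 CPM (log2 fold change -1.28, SE 0.187, adjusted p = 2.78e-06). Of the leukotriene genes, Alox5ap was called and Ltc4s was not, and the difference between them was not tested. Alox5ap had 18, 16 and 14 counts against 2, 6 and 3 (log2 fold change -1.89, SE 0.499, adjusted p = 0.00244). Ltc4s had 10, 19 and 13 counts against 11, 12 and 12, a log2 difference of -0.06 (SE 0.384, adjusted p = 0.905), with the groups overlapping. Against the mean of both control lines, VillinCreERT2 and C57BL/6, it was -0.69 for Ltc4s (adjusted p = 0.0824), and the same 6 genes stayed past the threshold. Gfi1b had 4, 2 and 3 counts against 1, 1 and 0, and the ratio of control to double knockout, 3.92, had an exact 95% interval of 0.811 to 37.3. Il25 had 2, 0 and 2 counts against 0 in each double-knockout library, and no fold is given because both groups were at or under 3 counts. The libraries of the groups did not overlap for 7 of the 9 genes, all lower in the double knockout, beside 30.5% of all genes tested. Gfi1b counts among the 7 although it was too scarce to be tested. A list of 6 enteroendocrine markers also lay lower there, at 182 to 193 CPM against 274 to 279 CPM in the controls. So did a list of 7 mast cell and basophil genes, at 10.9 to 11.8 against 18.0 to 19.4 CPM, with 4 to 6 of the 7 at 0. Leukocyte markers lay higher, at 5.35 to 6.92 against 3.50 to 5.10 CPM. The part of these lists in the tuft result was not tested.

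**Figure D1:**
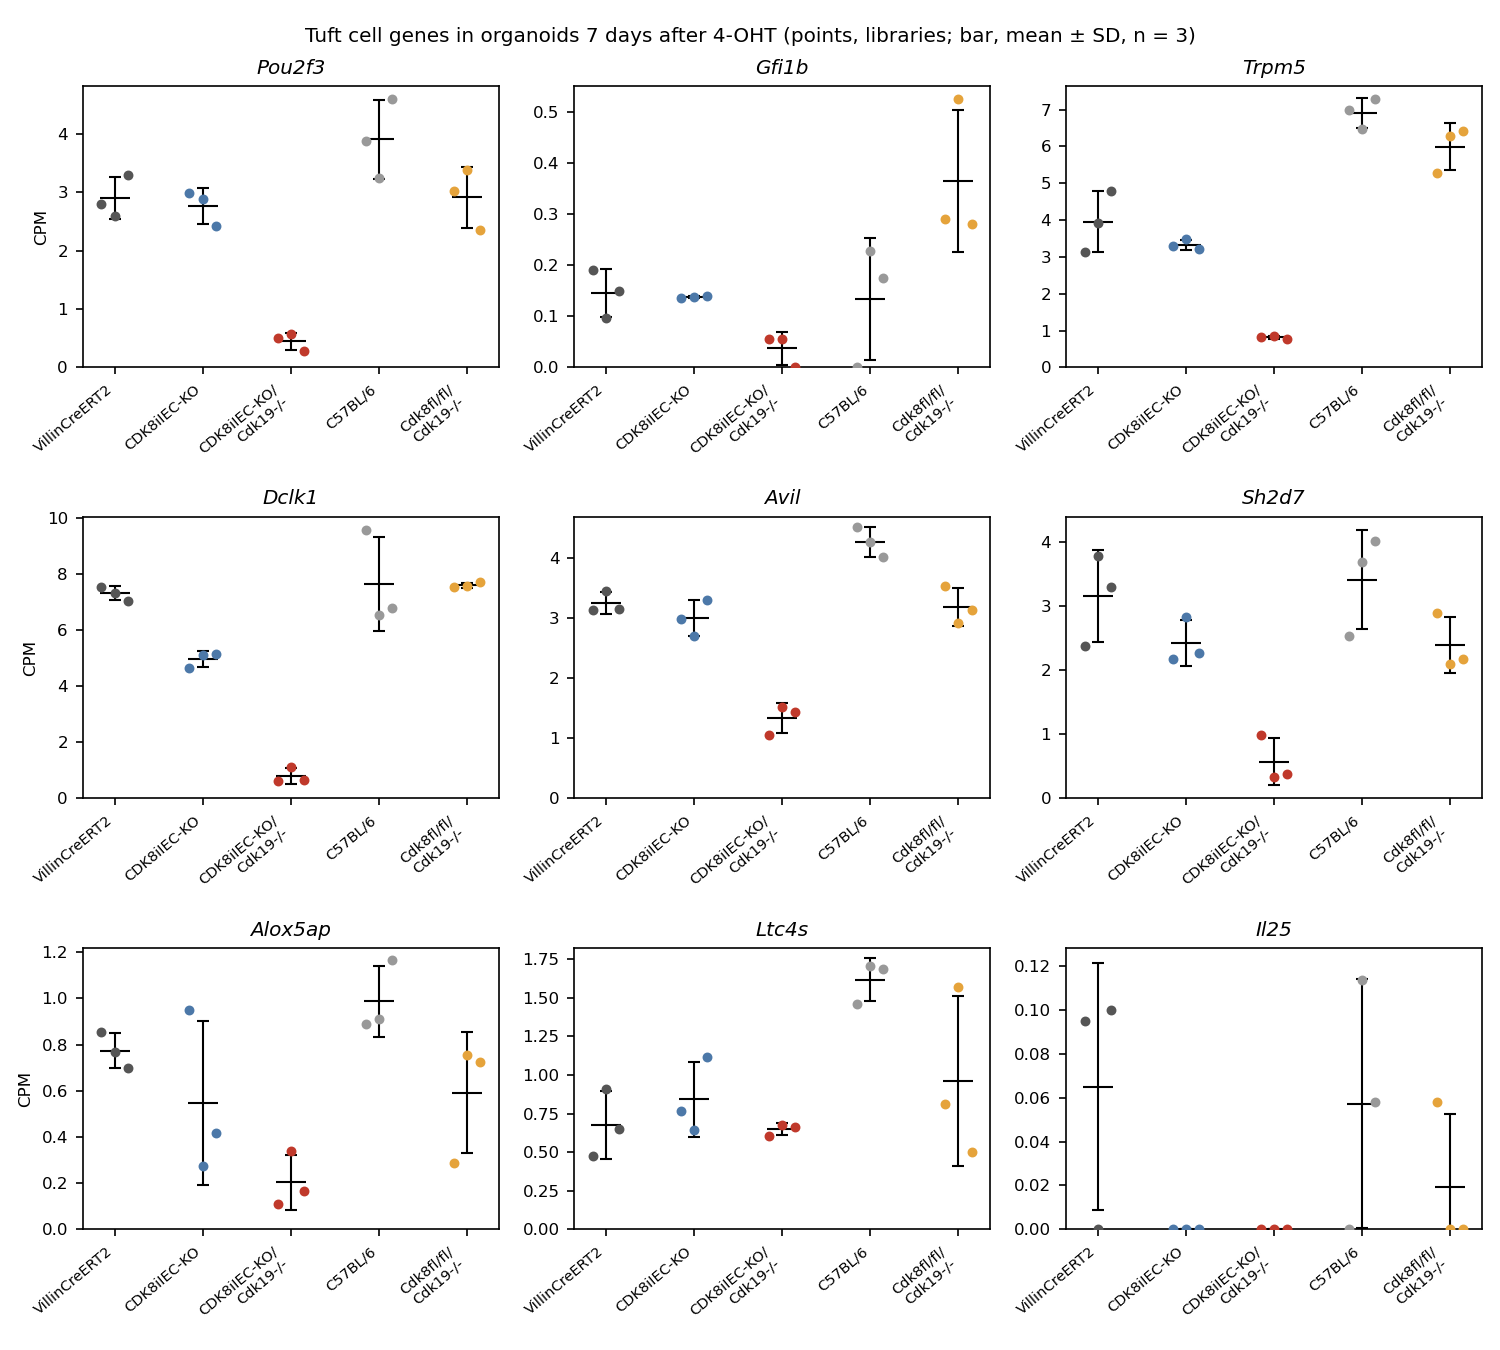
Levels (CPM) of the tuft genes in the day 7 organoids, 1 panel per gene, with a point for each library and bars at the mean ± SD of the 3 libraries of each genotype. Pou2f3, Trpm5, Dclk1, Avil, Sh2d7 and Alox5ap did not overlap between CDK8iIEC-KO/Cdk19-/- and VillinCreERT2 organoids, and Ltc4s did.

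The single knockouts were compared with their own controls, CDK8iIEC-KO with VillinCreERT2 and Cdk8fl/fl/Cdk19-/- with C57BL/6 organoids. No tuft gene was called in either comparison. For CDK8iIEC-KO, edgeR called 0 of 7 genes, 1 had an unadjusted p under 0.05, DESeq2 called 0, and 7.23% of all genes were called in either direction. That 1 gene was Dclk1, with 103, 112 and 111 counts against 159, 153 and 141 in the controls. All 3 CDK8iIEC-KO libraries lay under all 3 controls, and the log2 difference of -0.55 (SE 0.138, adjusted p = 0.00328) was a fold of 1.47, under the limit of 1.5. Pou2f3 had 66, 63 and 52 counts in CDK8iIEC-KO organoids (log2 difference -0.07, SE 0.185, adjusted p = 0.826), overlapping its controls. Trpm5 had 73, 76 and 69 counts (log2 difference -0.25, adjusted p = 0.246), also within the range of its controls.

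For Cdk8fl/fl/Cdk19-/- organoids, edgeR called 0 of 7 genes, 4 had an unadjusted p under 0.05, DESeq2 called 0, and 5.25% of all genes were called in either direction. Pou2f3 had 52, 58 and 42 counts against 61, 57 and 79 in C57BL/6 organoids (log2 difference -0.42, adjusted p = 0.134), and the groups overlapped. Dclk1 had 130, 130 and 138 counts against 151, 115 and 117 (log2 difference -0.00, adjusted p = 0.999). The remaining genes had log2 differences of -0.20 for Trpm5, -0.42 for Avil, -0.52 for Sh2d7, -0.73 for Alox5ap and -0.76 for Ltc4s. By CPM, Trpm5, Avil and Alox5ap were lower in every Cdk8fl/fl/Cdk19-/- library than in every C57BL/6 library, beside 15.7% of all genes, and Dclk1, Sh2d7 and Ltc4s overlapped. These calls moved with single libraries, as Sh2d7 was called lower without C57BL/6 replicate 1 (adjusted p = 0.0418), and Ltc4s without Cdk8fl/fl/Cdk19-/- replicate 2 (adjusted p = 0.0142). Gfi1b was in few reads, with 5, 9 and 5 counts in Cdk8fl/fl/Cdk19-/- and 0, 4 and 3 in C57BL/6 organoids. It was higher in every Cdk8fl/fl/Cdk19-/- library, beside 15.1% of all genes tested, and was itself not tested.

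Whether the double knockout exceeded the sum of the single knockouts was tested as a contrast in the same fit, on the log2 scale. Each genotype in it was 1 line, so line and genotype cannot be told apart. Of 7 tuft genes, 5 fell further than that sum, beside 8.34% of all genes. The excess was -2.19 for Pou2f3 (adjusted p = 1.45e-05), -1.81 for Trpm5 (adjusted p = 4.54e-06), -2.63 for Dclk1 (adjusted p = 1.4e-08) and -1.54 for Sh2d7 (adjusted p = 0.00334; -2.20 without CDK8iIEC-KO/Cdk19-/- replicate 1). For Avil it was -0.74 (adjusted p = 0.0174), and this call was lost without Cdk8fl/fl/Cdk19-/- replicate 1 (adjusted p = 0.0531) or without CDK8iIEC-KO/Cdk19-/- replicate 1 (adjusted p = 0.0699). Alox5ap (-0.67, adjusted p = 0.444) and Ltc4s (0.39, adjusted p = 0.548) did not pass. Since the single knockouts had different controls, the controls were compared with each other. Trpm5 and Ltc4s, 2 of 7 genes, were higher in C57BL/6 than in VillinCreERT2 organoids, beside 15.5% of all genes. Trpm5 had 110, 114 and 125 counts in C57BL/6 organoids (log2 difference 0.81, SE 0.145, adjusted p = 3.04e-05), and Ltc4s had 23, 30 and 29 (log2 difference 1.25, SE 0.325, adjusted p = 0.00175), in each case with no overlap with VillinCreERT2. Pou2f3 (0.43) and Avil (0.39) were higher by less than 1.5-fold.

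Other genes known from tuft cells were read beside the 9, from a list of 31 that was written with earlier results of these data known. Of the 24 that passed the filter, 16 fell in the double-knockout organoids and 1 rose, beside 7.95% of all genes lower and 11.5% higher. Their median log2 fold change was -1.77. Rgs13, a regulator of G-protein signalling, had 63, 79 and 59 counts in the controls and 10, 13 and 3 in the double knockout (log2 fold change -2.73, adjusted p = 9.63e-09). Plcb2, the phospholipase upstream of TRPM5, had 12, 7 and 6 counts against 1, 0 and 0. The phosphatase gene Ptpn18 was the 1 that rose (log2 fold change 0.82). In CDK8iIEC-KO organoids 4 of the 24 fell and 0 rose, beside 7.23% of all genes called, and in Cdk8fl/fl/Cdk19-/- organoids 0 fell and 2 rose, beside 5.25%.

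The same question was asked in IECs taken from mice. The 9 genes summed to 127 to 171 CPM in VillinCreERT2 IECs and to 47.0 to 90.8 CPM in CDK8iIEC-KO/Cdk19-/- IECs, and 2 of the 8 tested, Dclk1 and Trpm5, were called lower in CDK8iIEC-KO/Cdk19-/- IECs, beside 0.856% of all genes lower and 0.646% higher. Dclk1 had 611, 572 and 514 counts in VillinCreERT2 IECs and 157, 121 and 198 in the double knockout, which was 30.7 ± 3.03 against 7.97 ± 1.82 CPM (log2 fold change -1.95, SE 0.184, adjusted p = 0.0137). Trpm5 had 969, 695 and 677 counts against 374, 252 and 395, or 42.4 ± 9.37 against 17.1 ± 3.83 CPM (log2 fold change -1.31, SE 0.219, adjusted p = 0.0453). For both genes every double-knockout library lay under every control.

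Pou2f3, Avil and Sh2d7 were also lower in every double-knockout library without passing the edgeR test. Pou2f3 had 130, 104 and 94 counts against 33, 21 and 57 (log2 difference -1.68, SE 0.366, adjusted p = 0.0851). Avil had 542, 464 and 442 counts against 216, 110 and 238 (log2 difference -1.47, SE 0.279, adjusted p = 0.0626). Sh2d7 had 476, 456 and 359 counts against 164, 67 and 203 (log2 difference -1.69, SE 0.383, adjusted p = 0.0996). In all, 5 of the 9 genes did not overlap between the groups, beside 14.6% of all genes. The calls depended on single libraries: 0 genes were called without VillinCreERT2 replicate 1 or 3, 1 (Dclk1) without double-knockout replicate 1 or 3, and 4 without VillinCreERT2 replicate 2 or double-knockout replicate 2. Trpm5 was lost in 4 of these 6 fits, at adjusted p = 0.103 to 0.147. Dclk1 was lost in 2 of them, at adjusted p = 0.0641 without VillinCreERT2 replicate 1 and 0.0879 without replicate 3. DESeq2 called 5 genes, with Pou2f3 (adjusted p = 0.00293), Avil (7.29e-05) and Sh2d7 (0.00046) added, 4 were called without a filter on low counts, and 0 with the replicate number as a block (Dclk1 adjusted p = 0.0601, Trpm5 0.0809).

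Alox5ap, Ltc4s, Gfi1b and Il25 overlapped between the IEC groups. Alox5ap had 163, 276 and 123 counts in VillinCreERT2 IECs and 438, 169 and 182 in the double knockout (log2 difference 0.39, SE 0.483, adjusted p = 0.677), and the groups overlapped. Without double-knockout replicate 1 the difference was -0.22. Ltc4s had 183, 168 and 147 counts against 351, 182 and 271 (log2 difference 0.58, SE 0.249, adjusted p = 0.254), with 1 double-knockout library inside the range of the controls. Gfi1b had 35, 33 and 21 counts against 25, 9 and 25 (log2 difference -0.70, adjusted p = 0.417), and Il25 had 2, 13 and 3 against 6, 1 and 1.

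The IEC libraries also differed in transcripts of other cells. The 12 leukocyte markers summed to 91.9, 446 and 112 CPM in VillinCreERT2 IECs and to 1254, 793 and 724 CPM in the double knockout. Mesenchymal markers summed to 12.8, 870 and 54.7 CPM against 952, 592 and 449 CPM, and epithelial markers to 9934, 9614 and 9792 CPM against 8704, 8206 and 8931 CPM. Mast cells and other leukocytes also use Alox5ap and Ltc4s. A list of 7 mast cell and basophil genes summed to 23.2, 25.4 and 19.0 CPM in VillinCreERT2 IECs and to 61.1, 30.2 and 32.2 CPM in the double knockout. Of its members, the protease genes Mcpt1 (57, 159 and 62 counts against 655, 208 and 328) and Mcpt2 (12, 55 and 31 against 252, 64 and 85) had more counts in each double-knockout library than in every control. Kit overlapped between the groups, with 348, 250 and 253 counts against 243, 316 and 225. Cpa3 had 1, 2 and 5 counts against 27, 4 and 12, and Fcer1a, Tpsb2 and Mcpt8 had 7 counts or fewer in every library. VillinCreERT2 replicate 2 and double-knockout replicate 1 held the most leukocyte marker RNA of their groups and also the most Alox5ap counts. The part of these transcripts in the IEC results was not tested. Of the other tuft genes, 1 of 28 fell and 0 rose in IECs, beside 0.856% of all genes lower and 0.646% higher. Their median log2 difference was -0.68. The 1 that fell was Atp2a3, a calcium pump of the endoplasmic reticulum (log2 fold change -0.73, adjusted p = 0.0282).

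**Figure D2:**
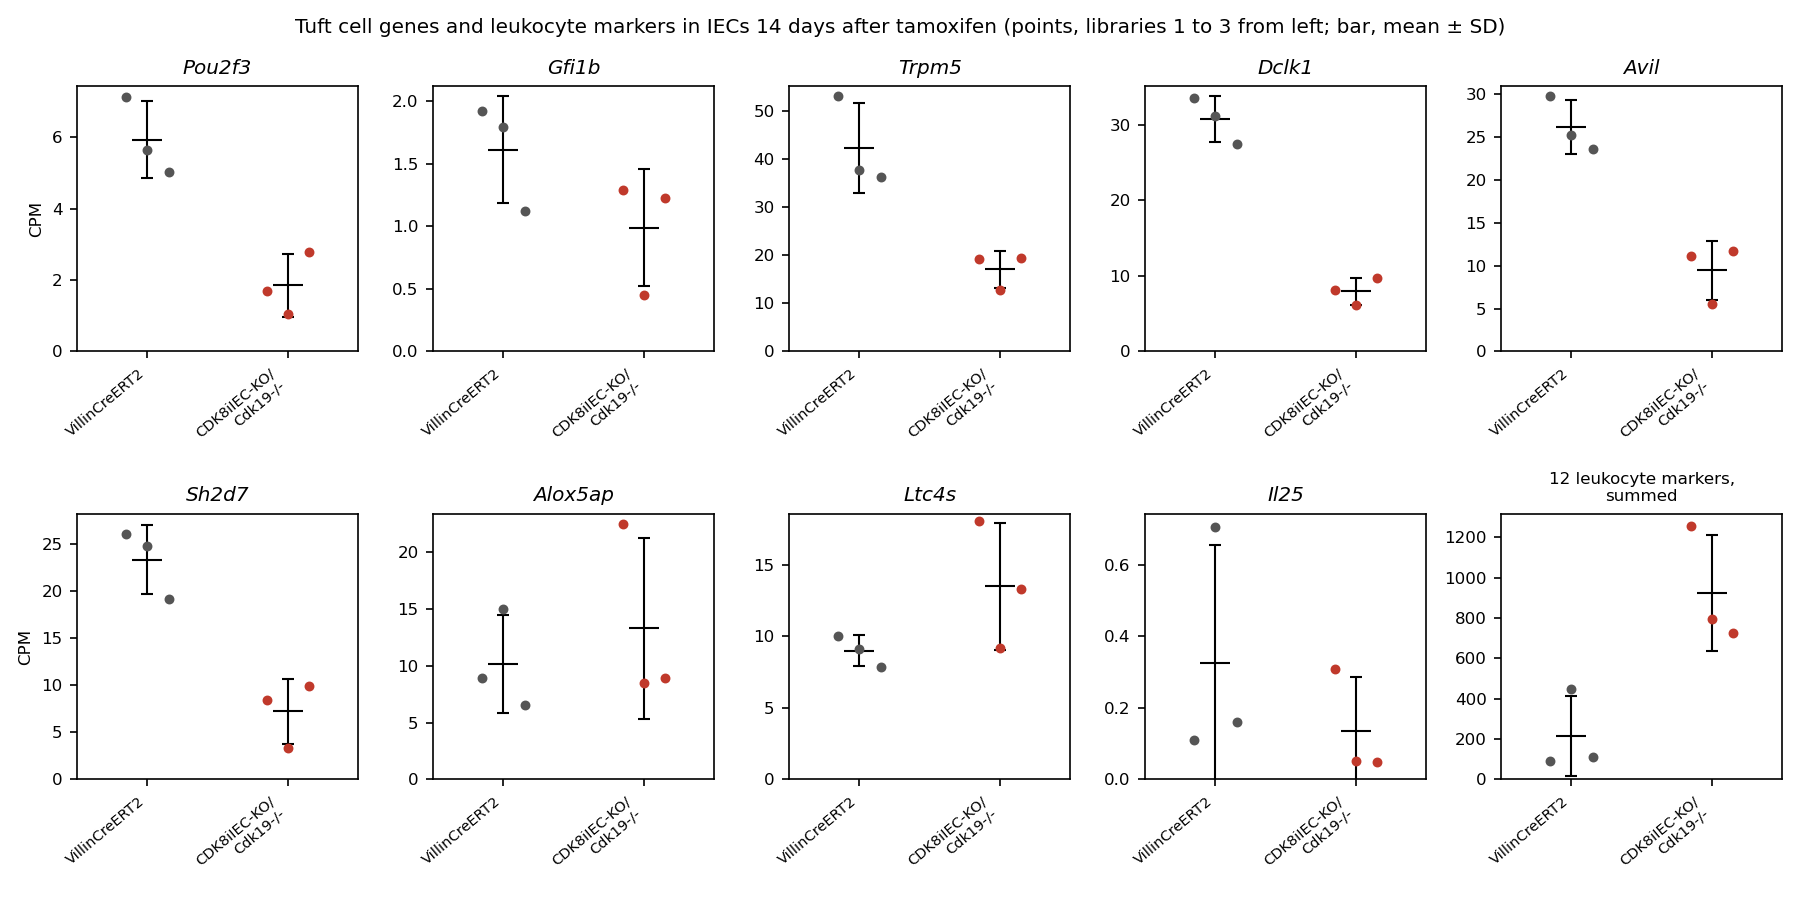
Levels (CPM) of the tuft genes and the summed leukocyte markers in IECs, with a point for each of the 3 VillinCreERT2 and 3 CDK8iIEC-KO/Cdk19-/- libraries and bars at the mean ± SD. Pou2f3, Trpm5, Dclk1, Avil and Sh2d7 did not overlap between the groups, and Alox5ap, Ltc4s, Gfi1b and Il25 did.

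The time course followed the tuft genes from day 3 to day 10 after 4-OHT or EtOH, in organoids without Cdk19. Of the 9 genes, 5 passed the filter (Pou2f3, Trpm5, Avil, Sh2d7 and Ltc4s), and Dclk1, Gfi1b, Alox5ap and Il25 had too few counts. At day 3, Trpm5, Sh2d7 and Ltc4s were already lower with 4-OHT, 3 of 5 genes beside 5.95% of all genes. At day 5 all 5 were lower, beside 4.62%, and at days 7 and 10 Pou2f3, Trpm5, Avil and Sh2d7 were lower, 4 of 5 beside 9.25% and 6.92%. Sh2d7 at days 5, 7 and 10 and Avil at day 10 were scarce with 4-OHT and passed the filter through the other groups of the fit, and with only the groups of day 10 in the fit, 2 genes were called. At day 10, 8.86% of all genes were called higher. Other marker lists moved with 4-OHT too, and their part in the tuft result was not tested. At day 3 the leukocyte list went from 8.64 to 10.3 CPM to 16.1 to 18.7 CPM. The mast cell and basophil list, with 4 or 5 of its 7 genes at 0, went from 66.7 to 74.1 CPM to 40.5 to 43.5 CPM. At day 10 the enteroendocrine list went from 2.52 to 3.91 CPM to 1.07 to 1.85 CPM. The epithelial list went from 6947 to 7383 CPM to 7876 to 8743 CPM.

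Pou2f3 with EtOH had 150, 121 and 93 counts at day 3, 97, 95 and 112 at day 5, 129, 99 and 71 at day 7, and 34, 48 and 43 at day 10. With 4-OHT it had 89, 108 and 96, then 30, 18 and 36, then 27, 34 and 20, and then 11, 10 and 10 counts at the same days. The arms overlapped at day 3 and at no later day. The log2 difference was -0.47 at day 3 (adjusted p = 0.0765; called without EtOH day 3 replicate 3, at 0.0312), and the log2 fold change was -1.80 at day 5 (adjusted p = 1.39e-06), -1.81 at day 7 (adjusted p = 6.09e-07) and -1.93 at day 10 (adjusted p = 1.59e-05).

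Trpm5 with EtOH had 198, 190 and 213 counts at day 3, 113, 125 and 121 at day 5, 117, 147 and 100 at day 7, and 42, 52 and 57 at day 10. With 4-OHT it had 125, 125 and 78, then 51, 34 and 28, then 41, 32 and 31, and then 8, 10 and 12 counts. The arms were apart on every day. The log2 fold change was -1.02 at day 3 (adjusted p = 3.13e-05), -1.62 at day 5 (adjusted p = 8.14e-07), -1.73 at day 7 (adjusted p = 1.24e-07) and -2.25 at day 10 (adjusted p = 4.04e-07).

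Sh2d7 with EtOH had 55, 34 and 50 counts at day 3, 55, 43 and 46 at day 5, 35, 30 and 27 at day 7, and 11, 13 and 9 at day 10. With 4-OHT it had 26, 21 and 27, then 2, 8 and 8, then 11, 1 and 2, and then 1, 1 and 0 counts. Here too no 4-OHT library reached an EtOH library of the same day. The log2 fold change was -1.06 at day 3 (adjusted p = 0.0115), -2.93 at day 5 (adjusted p = 2.31e-06) and -2.61 at day 7 (adjusted p = 2.35e-05). The day 3 call was lost without EtOH day 3 replicate 1 (adjusted p = 0.0653) or 4-OHT day 3 replicate 2 (adjusted p = 0.0539). The day 7 value moved to -4.20 without 4-OHT day 7 replicate 1, the library with 11 counts. At day 10 the ratio of EtOH to 4-OHT counts was 15.7, with an exact 95% interval of 4.01 to 135 (edgeR adjusted p = 0.000271).

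Avil with EtOH had 56, 31 and 49 counts at day 3, 27, 37 and 31 at day 5, 55, 36 and 33 at day 7, and 12, 8 and 15 at day 10. With 4-OHT it had 29, 44 and 32, then 16, 19 and 9, then 14, 6 and 10, and then 2, 4 and 1 counts. The arms overlapped at day 3 (log2 difference -0.53, adjusted p = 0.164) and were apart later, with log2 fold changes of -1.06 at day 5 (adjusted p = 0.0146), -1.96 at day 7 (adjusted p = 3.54e-05) and -2.19 at day 10 (adjusted p = 0.00226; -2.79 without 4-OHT day 10 replicate 2). The day 5 call was lost without EtOH day 5 replicate 2 (adjusted p = 0.0515) or 4-OHT day 5 replicate 3 (adjusted p = 0.0817).

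Ltc4s was called at days 3 and 5. With EtOH it had 46, 46 and 40 counts at day 3, 35, 31 and 32 at day 5, 33, 25 and 24 at day 7, and 12, 14 and 14 at day 10. With 4-OHT it had 26, 28 and 15, then 19, 10 and 11, then 16, 20 and 25, and then 10, 3 and 9 counts. It was lower at day 3 (log2 fold change -1.08, adjusted p = 0.00293) and day 5 (-1.24, adjusted p = 0.00251), and the difference did not pass at day 7 (-0.35, adjusted p = 0.361) or day 10 (-0.78, adjusted p = 0.119). Alox5ap overlapped between the arms at day 3, with 3, 6 and 7 counts with EtOH and 6, 10 and 13 with 4-OHT, and at day 5, with 3, 1 and 8 against 3, 1 and 4. It had 6, 4 and 7 counts with EtOH and 1, 3 and 1 with 4-OHT at day 7, a ratio of 3.23 (exact 95% interval 1.15 to 11.2), and 4, 8 and 2 counts against 1, 0 and 0 at day 10, a ratio of 13.3 (2.02 to 562). Gfi1b had 8, 7 and 8 counts with EtOH at day 3 and 2, 8 and 3 with 4-OHT. At day 5 it had 3, 4 and 4 counts against 0, 0 and 1, a ratio of 10.6 (exact 95% interval 1.55 to 458), and at day 7 it had 5, 2 and 2 against 1, 2 and 1, a ratio of 2.14 (0.597 to 9.51). Il25 did not pass 3 counts in any of the 24 libraries.

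The EtOH arm fell with time as well. From day 3 to day 10 without 4-OHT, 5 of 5 tuft genes fell, beside 22.4% of all genes. Pou2f3 went from 6.49 ± 1.58 to 2.09 ± 0.399 CPM (log2 fold change -1.64, adjusted p = 2.54e-07) and Trpm5 from 10.7 ± 0.621 to 2.52 ± 0.439 CPM (log2 fold change -2.09, adjusted p = 1.51e-10). Avil fell by 2.05 on the log2 scale (adjusted p = 4.81e-06), Sh2d7 by 2.16 (adjusted p = 7.59e-06) and Ltc4s by 1.81 (adjusted p = 6.05e-06). Gfi1b went from 8, 7 and 8 counts to 1, 0 and 0, a ratio of 24.6 (exact 95% interval 4.00 to 1020). The effect of 4-OHT also grew between those days, for 4 of 5 genes beside 12.4% of all genes. Avil and Sh2d7, 2 of the 4, had 4 and 1 counts at most in a day 10 library with 4-OHT, so their fitted differences rest on few reads and do not support that count. The change at day 10 minus the change at day 3 was -1.46 for Pou2f3 (adjusted p = 0.00281), -1.22 for Trpm5 (adjusted p = 0.0059), -2.69 for Sh2d7 (adjusted p = 0.0174) and -1.66 for Avil (adjusted p = 0.0373) on the log2 scale. For Ltc4s it was 0.30 (adjusted p = 0.661). The Sh2d7 call was lost without 4-OHT day 10 replicate 3 (adjusted p = 0.0734). The Avil call was lost without EtOH day 3 replicate 2, 4-OHT day 3 replicate 2, EtOH day 10 replicate 1 or 3, or 4-OHT day 10 replicate 1 or 3 (adjusted p = 0.0553 to 0.134). By day 10 with 4-OHT, the summed level of the 9 genes was 1.48 to 1.76 CPM, against 23.5 CPM or more in each library at day 3 with EtOH.

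**Figure D3:**
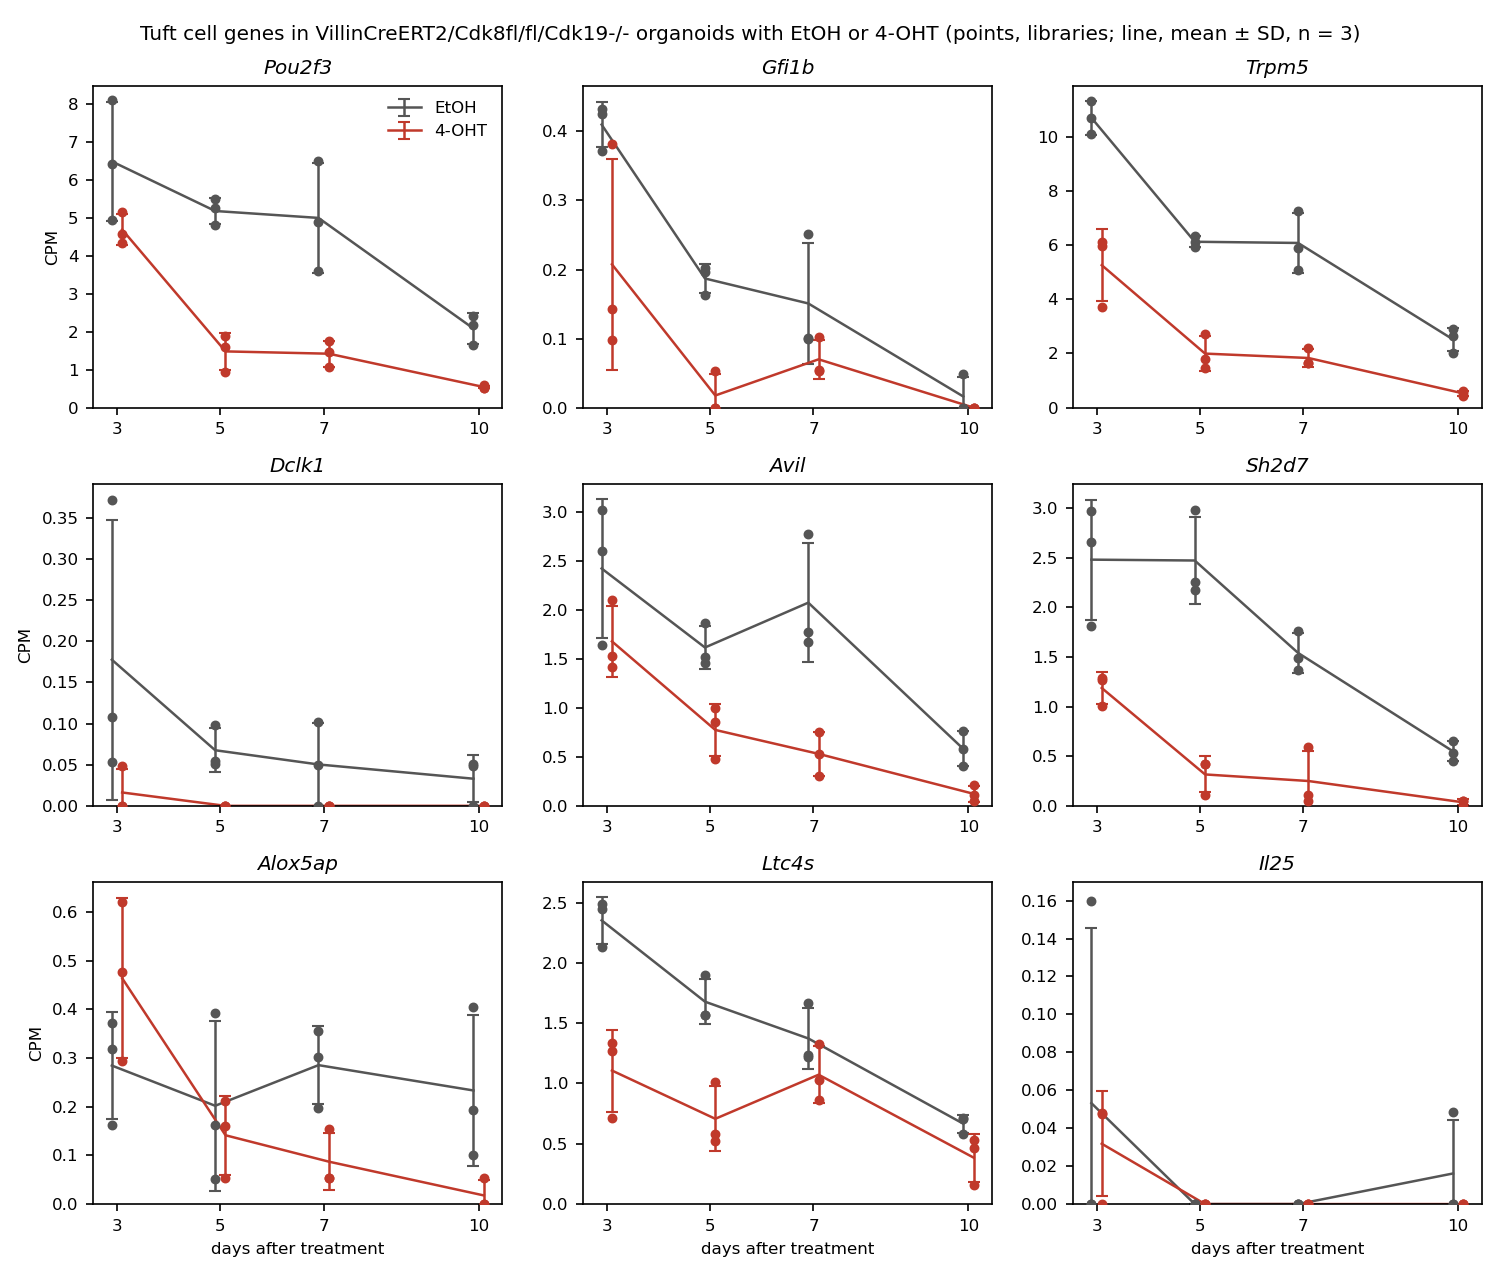
Levels (CPM) of the tuft genes by day in the time course, with a point for each library and lines through the mean ± SD (n = 3) of the EtOH and 4-OHT libraries. Pou2f3, Trpm5, Sh2d7 and Avil declined in the EtOH arm and lay lower in the 4-OHT arm from day 5 on.

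Of the 31 other tuft genes, 22 were tested in the time course. At day 3, 3 fell with 4-OHT and 3 rose, with a median log2 difference of -0.16, beside 5.95% of all genes lower. At day 5, 8 fell and 2 rose, beside 4.62% lower, and at day 7, 8 fell and 3 rose, beside 9.25% lower. At day 10, 10 fell and 1 rose, beside 6.92% of all genes lower and 8.86% higher, with a median log2 difference of -0.79. The summed level of the list, in which abundant genes weigh most, was 316 to 335 CPM with EtOH and 348 to 370.3 CPM with 4-OHT. Those with the greatest fitted falls were all scarce: Plcb2 had 6, 4 and 6 counts against 0 in each library, Vav1 had 5, 3 and 4 against 0 in each library, and Gnat3, the taste-type G-protein subunit, had 6, 9 and 5 against 0, 1 and 0. Hpgds, a prostaglandin synthase gene, was the 1 that rose (log2 fold change 0.96).

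In Wnt3-CM, which supplies Wnt ligand from outside the organoid, tuft genes were again present with EtOH at day 10 and much scarcer with 4-OHT. All 7 genes that passed the filter were lower, beside 7.42% of all genes lower and 9.45% higher. Dclk1, Sh2d7 and Alox5ap were scarce with 4-OHT and passed the filter through the EtOH libraries, so their place among the 7 does not support that count. Other marker lists moved with 4-OHT in Wnt3-CM as well. The enteroendocrine list went from 3.05 to 4.46 CPM to 1.36 to 1.84 CPM. The epithelial list went from 10896 to 11305 CPM to 8784 to 9532 CPM. The mast cell and basophil list went from 28.9 to 36.2 CPM to 11.8 to 16.3 CPM. Of its 7 genes, 4 to 5 were at 0 in each EtOH library and 3 to 5 in each 4-OHT library. Its sum thus rests on few genes and does not show that such cells were present. The part of these lists in the tuft result was not tested. Pou2f3 had 67, 73 and 86 counts with EtOH and 6, 24 and 14 with 4-OHT (log2 fold change -2.46, SE 0.292, adjusted p = 1.03e-06). Trpm5 had 170, 227 and 203 counts against 22, 20 and 26, a fall of 9.44-fold (log2 fold change -3.24, SE 0.184, adjusted p = 5e-12). Avil had 90, 92 and 67 counts against 11, 6 and 8 (log2 fold change -3.40, adjusted p = 1.29e-09). For these genes the 4-OHT libraries all lay under the lowest EtOH library.

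Sh2d7 had 55, 54 and 60 counts with EtOH and 1, 3 and 0 with 4-OHT, a ratio of 45.4 with an exact 95% interval of 17.4 to 169 (edgeR adjusted p = 1.42e-09). Dclk1, scarce in this line, had 12, 14 and 18 counts against 0, 0 and 2, a ratio of 23.7 with an exact interval of 6.17 to 201 (edgeR adjusted p = 2.56e-05). Alox5ap had 15, 28 and 30 counts against 1, 4 and 4 (log2 fold change -3.07, adjusted p = 1.34e-05). Ltc4s changed least, from 10, 13 and 17 counts to 6, 7 and 8 (log2 fold change -1.02, adjusted p = 0.0402). That call was lost in 5 of 6 fits with a library left out, all but the one without EtOH replicate 1 (adjusted p = 0.0615 to 0.184). Gfi1b had 3, 9 and 5 counts with EtOH and 0 in every 4-OHT library, so it was at least 2.03-fold lower by the floor of 3 counts per library.

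The change in Wnt3-CM was compared with that at day 10 of the time course, in 1 fit of both tables. Only Trpm5, 1 of 7 genes beside 6.21% of all genes, fell further in Wnt3-CM, by 1.00 on the log2 scale (SE 0.36, adjusted p = 0.044). This call was lost in 8 of 12 fits with a library left out (adjusted p = 0.0569 to 0.152), those without Wnt3-CM EtOH replicate 2 or 3, Wnt3-CM 4-OHT replicate 1 or 2, EtOH day 10 replicate 1 or 2, or 4-OHT day 10 replicate 2 or 3. Of 22 other tuft genes, 14 fell in Wnt3-CM and 3 rose, beside 7.42% of all genes lower and 9.45% higher. Their median log2 fold change was -2.04. Gnat3 had 18, 23 and 14 counts against 1, 0 and 0, and the succinate receptor gene Sucnr1 had 13, 26 and 11 against 0, 0 and 1. The 3 that rose were the IL-25 receptor gene Il17rb (log2 fold change 0.98), Hpgds (0.93) and Ptpn18 (0.64).

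Whether kinase-dead CDK19 kept tuft genes up when Cdk8 was deleted was examined in Cdk19D173A/- organoids. Because the table names these libraries by line number and treatment only, they were matched to this genotype as the 1 group without another source. With EtOH, these organoids had the highest summed level of the 9 genes among all organoids, at 49.8 to 55.1 CPM. The 31 other tuft genes summed to 340 to 373 CPM here and were highest in Wnt3-CM with EtOH, at 488 to 538 CPM. With 4-OHT, 7 of 8 genes fell, beside 6.25% of all genes lower and 6.05% higher. All 9 of 9 genes were lower in every 4-OHT library than in every EtOH library, beside 21.6% of all genes tested. Il25 counts among the 9 although it was too scarce to be tested. The 6 enteroendocrine markers were lower as well, at 704 to 764 CPM with EtOH and 240.3 to 265 CPM with 4-OHT. So was the mast cell and basophil list, at 49.6 to 58.7 against 21.6 to 23.2 CPM, with 4 or 5 of its 7 genes at 0. Leukocyte markers were higher with 4-OHT, at 8.40 to 9.59 against 5.87 to 7.48 CPM. The part of these lists in the tuft result was not tested. Pou2f3 had 183, 185 and 201 counts with EtOH and 38, 41 and 37 with 4-OHT, or 6.33 ± 0.173 against 1.38 ± 0.128 CPM (log2 fold change -2.20, SE 0.159, adjusted p = 7.63e-06). Trpm5 had 354, 320 and 424 counts against 62, 86 and 69 (log2 fold change -2.25, SE 0.157, adjusted p = 6.37e-06).

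Dclk1 had 458, 443 and 493 counts with EtOH and 98, 133 and 83 with 4-OHT in Cdk19D173A/- organoids (log2 fold change -2.08, SE 0.126, adjusted p = 2.41e-06). Sh2d7 had 261, 221 and 262 counts against 34, 36 and 31 (log2 fold change -2.79, SE 0.163, adjusted p = 1.83e-06), the greatest fall of the 8. Avil had 240, 249 and 231 counts against 66, 113 and 100 (log2 fold change -1.28, SE 0.197, adjusted p = 0.000966), again the smallest of the called falls. Alox5ap went from 30, 24 and 34 to 12, 9 and 11 counts (log2 fold change -1.36, adjusted p = 0.00938). Gfi1b, which reached 10, 15 and 23 counts with EtOH, had 5, 4 and 6 with 4-OHT (log2 fold change -1.56, SE 0.459, adjusted p = 0.0284). The Gfi1b call was lost without EtOH replicate 2 or 3 or 4-OHT replicate 1 or 2 (adjusted p = 0.0607 to 0.139). Ltc4s had 38, 40 and 33 counts against 10, 17 and 24 (log2 difference -1.02, SE 0.353, adjusted p = 0.0553), and was called lower without 4-OHT replicate 3 (adjusted p = 0.0115). Il25 had 2, 5 and 1 counts against 0 in each library, and no fold is given because the floor of 3 counts lies above the mean with EtOH.

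The change in Cdk19D173A/- organoids was set against that at day 7 of the time course, where both Cdk19 alleles were null. Of 7 tuft genes edgeR called 0, 0 had an unadjusted p under 0.05 and DESeq2 called 0, beside 11.1% of all genes called in either direction. The log2 difference of the changes was -0.40 for Pou2f3, -0.53 for Trpm5, -0.18 for Sh2d7, 0.68 for Avil, 0.28 for Alox5ap and -0.66 for Ltc4s. For Dclk1, at 2 counts or fewer in the time course libraries of that day, it was 1.34 with an SE of 0.982. The tables were of different lines, and line and Cdk19 allele cannot be told apart. Among the other tuft genes, 18 of 27 fell in Cdk19D173A/- organoids and 2 rose, beside 6.25% of all genes lower and 6.05% higher. Their median log2 fold change was -1.46. Rgs13 went from 210, 170 and 182 counts to 23, 28 and 19 (log2 fold change -2.93), the homeobox gene Hmx2 from 34, 29 and 35 to 4, 6 and 6 (-2.50), and Gnat3 from 12, 11 and 17 to 1, 3 and 0. Hpgds rose (log2 fold change 0.61). Atp2a3 rose from 37.3 to 91.8 CPM (log2 fold change 1.30), although it fell in the day 7 double knockout (-0.86), in Wnt3-CM (-1.20) and at day 10 of the time course (-0.95).

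**Figure D4:**
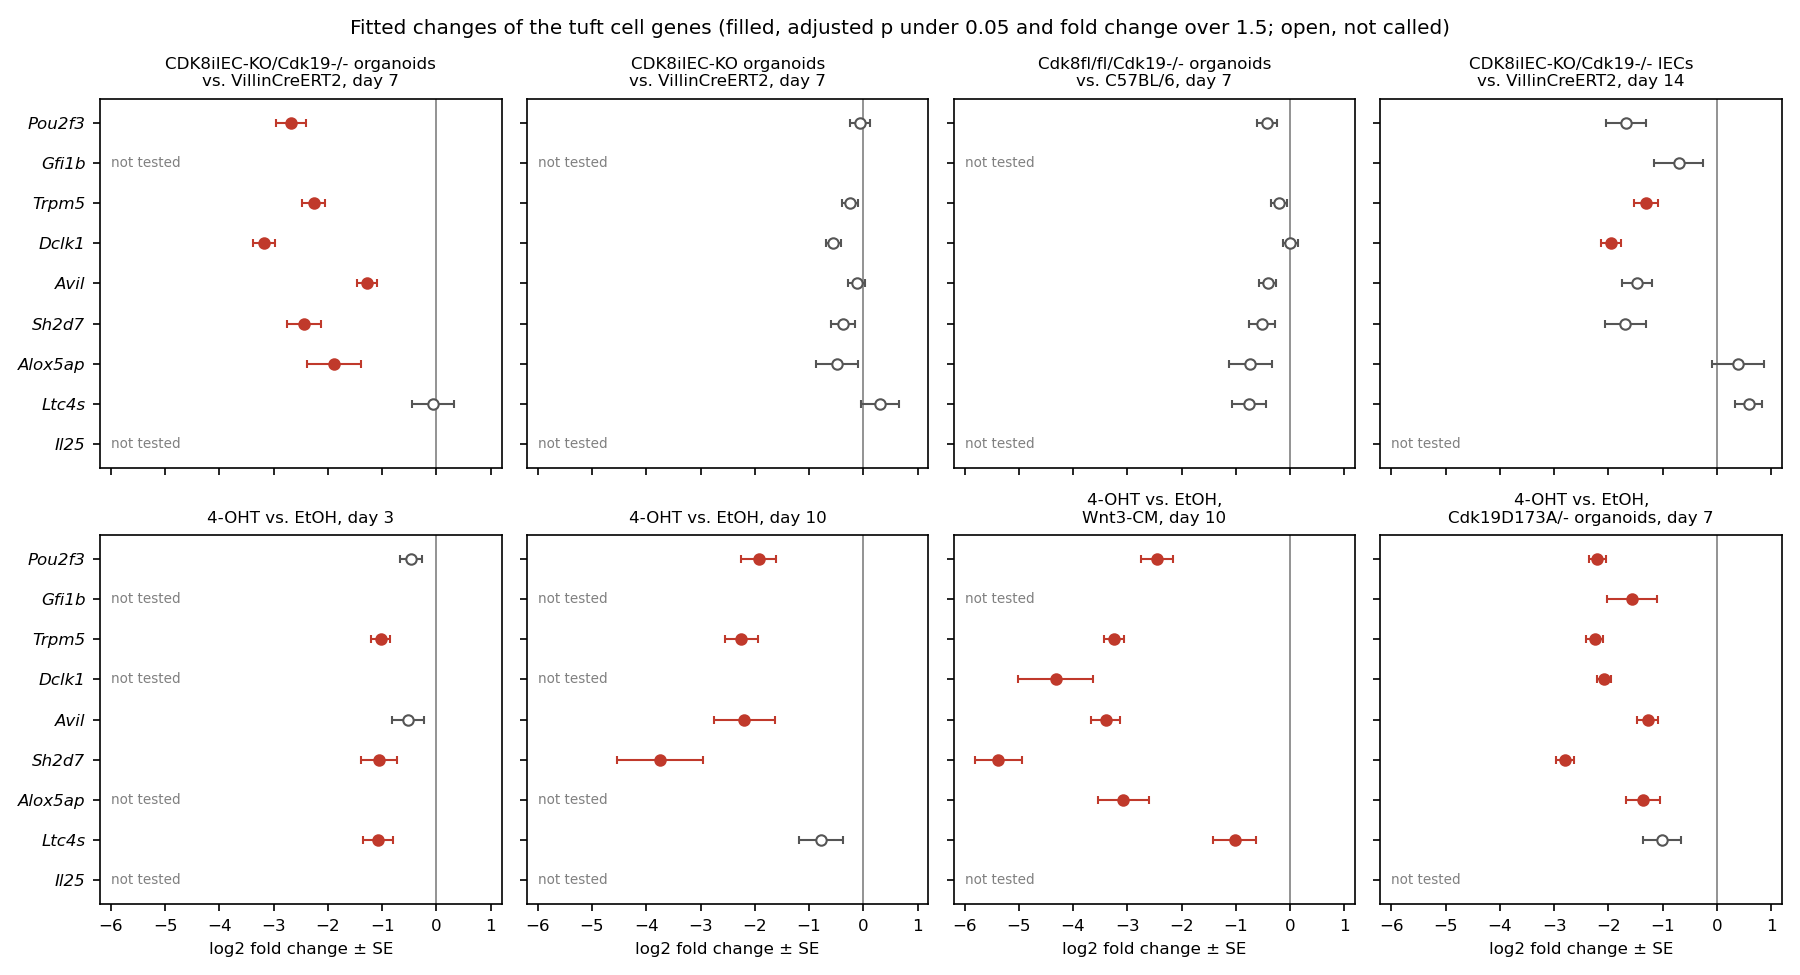
Fitted log2 fold change of each tested tuft gene in 8 comparisons, 1 panel each, with bars of 1 SE and filled points for genes called changed. Pou2f3, Trpm5 and Sh2d7 were called lower in the double-knockout, day 10, Wnt3-CM and Cdk19D173A/- organoids, where Ltc4s lay nearest to 0.

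Dclk1 stood apart from the other tuft genes between lines. In the VillinCreERT2/Cdk8fl/fl/Cdk19-/- line of the time course it did not pass 7 counts in any EtOH library, although other tuft genes were present there. At day 7 with EtOH the line had 5.00 ± 1.45 CPM of Pou2f3, 6.08 ± 1.11 of Trpm5 and 1.54 ± 0.203 of Sh2d7, beside 2.90 ± 0.364, 3.96 ± 0.833 and 3.15 ± 0.720 CPM in VillinCreERT2 organoids. Per 100 Trpm5 counts, Dclk1 had 186 counts in VillinCreERT2, 110 in C57BL/6, 150 in CDK8iIEC-KO, 127 in Cdk8fl/fl/Cdk19-/- and 97.7 in CDK8iIEC-KO/Cdk19-/- organoids, 127 in Cdk19D173A/- organoids with EtOH and 145 with 4-OHT. In the time course with EtOH it had only 0.824 to 1.66 per 100 Trpm5 counts, and 7.33 in Wnt3-CM with EtOH. At day 3, Dclk1 had 2, 7 and 1 counts with EtOH and 1, 0 and 0 with 4-OHT, a ratio of 11.1 with an exact 95% interval of 1.58 to 482. In IECs the figure was 72.5 per 100 Trpm5 counts in VillinCreERT2 and 46.6 in the double knockout. The Wnt3-CM and Cdk19D173A/- libraries were deposited in the same table. With EtOH at day 10, Dclk1 was at 0.771 ± 0.162 CPM in Wnt3-CM and at 0.033 ± 0.0286 CPM in the time course. What sets the time-course line apart was not tested.

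**Figure D5:**
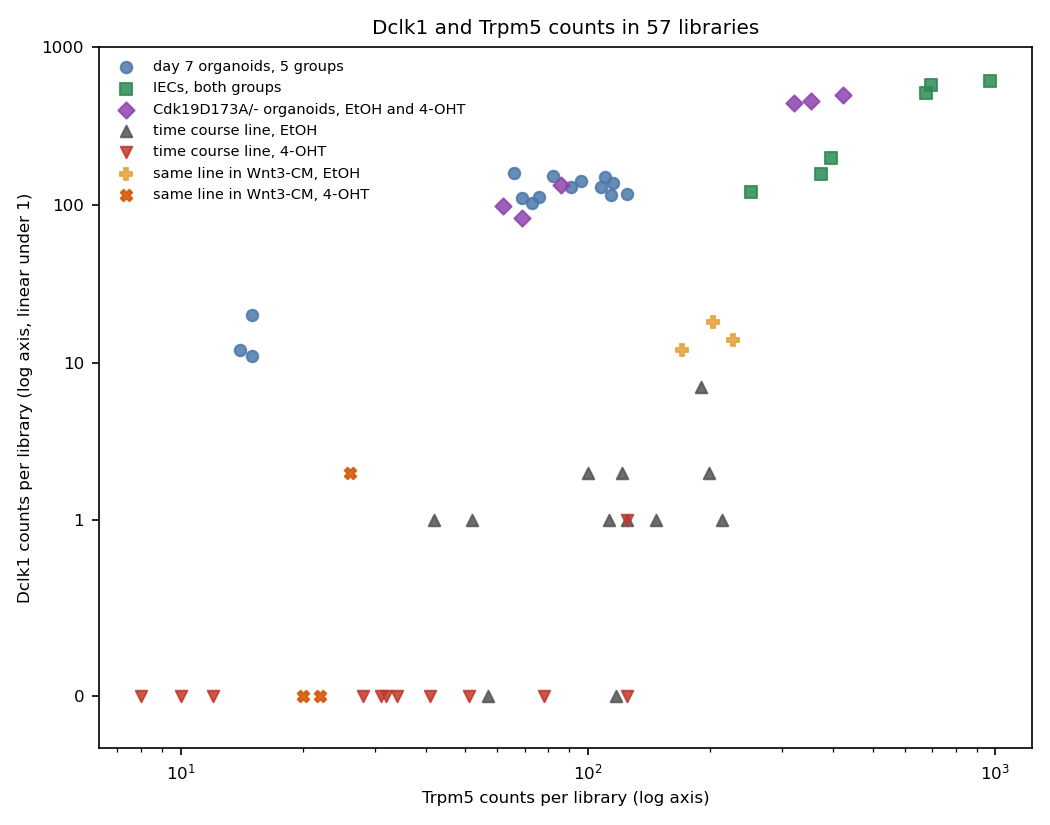
Dclk1 counts against Trpm5 counts on log axes (Dclk1 linear under 1), with a point for each of the 57 libraries and symbols for the lines and treatments. Libraries of the time course and Wnt3-CM lie far below the other organoids in Dclk1 at like counts of Trpm5.

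Ordered by mean level over all 19 groups, Pou2f3 stood highest in EtOH organoids at day 3 (6.49 ± 1.58 CPM), followed by Cdk19D173A/- organoids with EtOH (6.33 ± 0.173) and VillinCreERT2 IECs (5.94 ± 1.08), and neighbours in that order overlapped. The lowest 3 groups were Wnt3-CM with 4-OHT (0.714 ± 0.435 CPM), 4-OHT at day 10 (0.543 ± 0.0377 CPM) and CDK8iIEC-KO/Cdk19-/- organoids at day 7 (0.446 ± 0.150 CPM), and all their libraries lay under those of the next group up, Cdk19D173A/- organoids with 4-OHT. Trpm5 stood highest in VillinCreERT2 IECs, apart from double-knockout IECs (17.1 ± 3.83 CPM), which overlapped Cdk19D173A/- organoids with EtOH (12.2 ± 1.52 CPM). It was lowest at day 10 with 4-OHT (0.524 ± 0.0964 CPM), then in double-knockout organoids (0.816 ± 0.0371 CPM) and in Wnt3-CM with 4-OHT (1.11 ± 0.144 CPM), and none of these neighbours overlapped. Alox5ap and Ltc4s were both highest in double-knockout IECs, at 13.3 ± 7.97 and 13.5 ± 4.45 CPM, where they overlapped VillinCreERT2 IECs at 10.2 ± 4.34 and 9.01 ± 1.09 CPM.

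The genes whose pattern was most like that of the tuft genes over the 24 time-course libraries were named by Pearson's r with the mean standardized log2 CPM of the 5 tested genes. The members themselves had r between 0.89 for Ltc4s and 0.99 for Trpm5. The closest others were Cracr2a (r = 0.97), Rbm38 (0.97), Ints9, Arhgap39, Habp2, Colca2 and Myc (each 0.96), and Ssbp4, Atoh1 and Sox12 (each 0.95). Cracr2a went from 83.4 CPM at day 3 with EtOH to 11.3 CPM at day 10 with 4-OHT. Myc went from 351 to 71.2 CPM, and Atoh1, the factor that specifies secretory cells, from 32.7 to 8.44 CPM. None of the 10 was on the list of other tuft genes. Over the 15 day 7 organoid libraries, which were not used to choose them, r with the same 5 genes was 0.96 for Ssbp4, 0.95 for Cracr2a, 0.94 for Atoh1, 0.92 for Myc and 0.54 for Rbm38. These points share lines, days and treatments, and the correlations are descriptions.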

How the data were processed

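RNA was sequenced as 100 bp paired-end reads. Per the submitters' processing notes, the authors used STAR 2.5.2, featureCounts of Subread 1.6.3 and build mm10, and deposited raw counts per gene in tables of several groups each. The annotation release and strand setting are not given in the sources used here. Of 54752 gene identifiers, 53861 matched GENCODE vM21. For IECs with kinase-dead alleles, 6 columns carry letters that the labels do not explain and were not used.

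Each table was tested on its own, with the table of Wnt3-CM and Cdk19D173A/- organoids split by experiment, with edgeR 4.0.16 (R 4.3.3, limma 3.58.1), with genes kept by filterByExpr, TMM scaling and the robust quasi-likelihood F test, Benjamini-Hochberg adjusted over all genes tested. Contrasts across experiments used 1 fit of both. Genes at 3 counts or fewer in every library of a group are given by counts, with the exact 95% interval of the ratio (conditional binomial) or, at 0 in every library, a bound from 3 counts per library; intervals cover counting error only. The 9 genes, the lists and the tests were chosen with earlier results of these data known. Named genes are the 9 members, up to 3 falls and 3 rises among called genes of the other tuft list (double-knockout organoids, IECs, day 10, Wnt3-CM and Cdk19D173A/- organoids), and the 10 genes most like the members. Markers of other cells and genes of the closing section were named after their values were seen. A gene that this rule also selected is not reported here. Alternatives were DESeq2 1.42.0, RLE size factors, no filter, only the groups compared, a replicate block, VillinCreERT2 and C57BL/6 averaged as control of the double-knockout organoids, and each library left out. Replicate numbers were not used to pair the samples. In each day 7 organoid, IEC and time-course comparison some same-numbered pair correlated below 0.1, which does not exclude pairing. For C57BL/6 against VillinCreERT2 organoids, all 3 libraries correlated best with the library of their own number (r of 0.0380 to 0.0699). Scripts were tested on simulated data.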

Additional observations from a re-analysis of the deposited data

Results flagged for a closer look

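The 5 differences between changes given here passed their own test. The fall with 4-OHT was greater at day 10 than at day 3 of the time course for Pou2f3 (change at day 10 minus change at day 3 of -1.46 on the log2 scale, adjusted p = 0.00281), Trpm5 (-1.22, adjusted p = 0.0059), Avil (-1.66, adjusted p = 0.0373) and Sh2d7 (-2.69, adjusted p = 0.0174). The fall of Trpm5 was greater in Wnt3-CM than at day 10 of the time course (-1.00, adjusted p = 0.044). The Trpm5 difference in Wnt3-CM was lost in 8 of 12 fits with a library left out (adjusted p = 0.0569 to 0.152), without a filter on low counts (0.0714) and with DESeq2 (0.053). The Avil difference was lost in 6 of 12 (0.0553 to 0.134), and that of Sh2d7 in 1 (0.0734). At day 10 with 4-OHT, Sh2d7 had 1, 1 and 0 counts and Avil 2, 4 and 1, so the fitted differences of both rest on few reads and are no bounds. The tests were edgeR contrasts with 3 libraries per group, and EtOH levels of these genes also fell from day 3 to day 10. No other rule applied, since every group had 3 libraries.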

How the results depend on the processing

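With no library left out, 417 of 435 values of single genes kept their direction and their side of the threshold, 7 lost and 6 gained a call, and 5 turned in sign. The 5 were Dclk1 in Cdk8fl/fl/Cdk19-/- against C57BL/6 organoids, where the difference was 0.0079 without a filter on low counts, 0.011 with RLE size factors, 0.0093 with DESeq2, 0.0021 with the replicate block and 0.0016 with only the groups compared. Tuft genes called in IECs went from 2 to 4 without a filter, to 5 with DESeq2 and to 0 with the replicate block, and all genes called from 228 to 1103, 859 and 8. The replicate block changed no other count of tuft genes by over 1.5 times. Tuft genes called at day 10 went from 4 to 2 with only the groups compared, where Avil and Sh2d7 no longer passed the filter, and Trpm5 in Wnt3-CM against day 10 was lost (1 to 0) without a filter (adjusted p = 0.0714) and with DESeq2 (adjusted p = 0.053). Ltc4s in Wnt3-CM was lost without a filter (adjusted p = 0.0834) and with DESeq2 (adjusted p = 0.146), Gfi1b in Cdk19D173A/- organoids was lost with DESeq2 (adjusted p = 0.0692), and Ltc4s there was gained without a filter (adjusted p = 0.0252). Without a filter, Alox5ap at day 10 (adjusted p = 0.0158), Gfi1b in Wnt3-CM (adjusted p = 0.000214) and Gfi1b between EtOH days (adjusted p = 0.000711) were also called. Against the mean of both control lines, all genes called in the double-knockout organoids went from 2938 to 2108 and the tuft genes called remained 6. The cause of these changes was not tested.

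With each library left out in turn, tuft genes called ranged from 0 to 4 in IECs, 0 to 1 in Cdk8fl/fl/Cdk19-/- organoids and 0 to 1 for Wnt3-CM against day 10, and all genes called in IECs from 3 to 1566. Of 768 values of single genes, 709 were the same, 36 lost and 8 gained a call, and 15 turned in sign, none of them called. Those that turned ranged, over the libraries left out, from -0.14 to 0.038 for Pou2f3 in CDK8iIEC-KO organoids, -0.27 to 0.21 for Ltc4s in the double-knockout organoids, -0.13 to 0.16 for Dclk1 and -0.050 to 0.29 for Sh2d7 between the controls, -0.096 to 0.19 for Dclk1 in Cdk8fl/fl/Cdk19-/- organoids, -0.22 to 0.78 for Alox5ap in IECs, -0.38 to 2.15 for Alox5ap and -0.61 to 0.055 for Ltc4s in Wnt3-CM against day 10, and -0.67 to 1.40 for Sh2d7 in Cdk19D173A/- organoids against day 7. Replicate numbers were not used to pair the samples, and the correlation of same-numbered libraries fell to -0.410 in IECs. The replicate block was not fitted for Wnt3-CM, Cdk19D173A/- organoids and the fits across tables, where column numbers could not be linked to labelled replicates. Low counts of Gfi1b, Il25 and Alox5ap, and of Dclk1 in the time-course line, limit what could be tested.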

Other observations

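Low Dclk1 in the time-course line had company. Of 12783 genes with at least 10 counts in each of the 15 day 7 organoid libraries, 90 (0.704%) had 3 counts or fewer in every day 7 library of the time-course line, and Dclk1 was 1 of them. This list was drawn after the values were seen and has no test. It held hormone and secretory-granule genes of enteroendocrine cells (Gcg, Gip, Nts and Scg2) and factors of that lineage (Neurod1, Pax6, Nkx2-2 and Isl1). It also held Kctd12, which is on the list of other tuft genes, and Car4 and Slc1a3. Gcg had 212 to 1756 counts in the day 7 organoids and at most 2 in the day 7 libraries of the time-course line. In Wnt3-CM with EtOH, 84 of the 90 were at 3 counts or fewer in every library, whereas in Cdk19D173A/- organoids with EtOH 7 were, and in VillinCreERT2 IECs 1 was. A list of 6 enteroendocrine markers summed to 182 to 193 CPM in CDK8iIEC-KO/Cdk19-/- organoids and 253 to 654 CPM in the other day 7 organoids, 704 to 764 CPM with EtOH and 240.3 to 265 CPM with 4-OHT in Cdk19D173A/- organoids, and 1.07 to 14.9 CPM in the time course. Wnt3-CM and Cdk19D173A/- libraries were deposited in the same table. What sets the time-course line apart was not tested.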
